A study of Mus musculus with 36 samples.

Results

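The interferon regulatory factors Irf4, Irf8, Irf2, Irf3 and Irf5 and the Ets family factors Spi1 (PU.1) and Spib (Spi-B) were followed in the mouse pre-B cell line B3 while the transcription factor Ikaros was brought into the nucleus. These 7 genes were taken by symbol from the 12762 genes of the expression table. All 7 were present, Spi1 under its older symbol Sfpi1 with the same Ensembl identifier (ENSMUSG00000002111). Messenger RNA had been sequenced strand-specifically in 36 libraries, 3 for each of 12 groups. The Ikaros line carried HA-Ikaros-ERt2, that is, Ikaros joined to the part of the estrogen receptor that binds hormone, with IRES-GFP in an MSCV retroviral vector. The control line carried the same ERt2-IRES-GFP vector without Ikaros. Both were pools of GFP-sorted transduced cells, and not clones. Each line was sampled at 0, 2, 6, 12, 18 and 24 h after addition of 4-hydroxytamoxifen, which moves the ERt2 fusion into the nucleus. The labels list 0.5 uM of the drug for all libraries, 0 h included, whereas the methods describe 0 h cells as untreated and obtained separately. Comparisons with 0 h therefore also compare occasions of collection, and the effects of drug and collection cannot be told apart there. Expression values are log2 levels corrected for GC content and gene length, so a difference of 1 is a 2-fold change. The depth of each library cannot be read from these values.

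Interferon regulatory factors share a DNA-binding domain that reads GAAA-rich elements. IRF4 and IRF8 bind DNA weakly by themselves, and in B cells they are recruited by PU.1 or Spi-B to composite elements in which an Ets core GGAA lies beside a GAAA. In pre-B cells IRF4 and IRF8 overlap in function: they act in the shut-down of surrogate light chain transcription and in the opening of the light chain loci. PU.1 is shared by lymphoid and myeloid cells and its amount matters for the choice between them, whereas Spi-B is made mainly in B cells and plasmacytoid dendritic cells and can stand in for PU.1 at many sites. IRF2 mostly represses interferon-type elements, and IRF3 and IRF5 are latent factors that are activated by phosphorylation downstream of nucleic acid and Toll-like receptors.

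In Ikaros cells the 4 factors of the composite element separated in time. Irf4 messenger fell 32.4-fold below control within 2 h and then climbed back to the control level by 24 h. Spib rose in steps up to 12 h and stood 66.6-fold above control at 24 h. Spi1 rose early, was highest at 6 and 12 h and then came partly down. Irf8 was slightly above control at 6 h and below it from 12 h on. In the group means Irf2 and Irf5 were lower than control at 2 h and higher from 12 h on, and Irf3 passed the test at no time.

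The sequences shown are those of the promoters of Irf4 and Spib, whose messengers moved the most, and of Irf2, the only member whose window held a composite element. Each is the 250 bases before the gene start in the RefSeq promoter table (GRCm38.p6), printed 5′ to 3′ on the strand of the gene. The capitals mark the Ets core GGAA on either strand (GGAA or TTCC). The Irf4 window is chr13:30748983-30749232 on the forward strand, the Spib window chr7:44532072-44532321 on the reverse strand, and the Irf2 window chr8:46739495-46739744 on the forward strand.
Irf4: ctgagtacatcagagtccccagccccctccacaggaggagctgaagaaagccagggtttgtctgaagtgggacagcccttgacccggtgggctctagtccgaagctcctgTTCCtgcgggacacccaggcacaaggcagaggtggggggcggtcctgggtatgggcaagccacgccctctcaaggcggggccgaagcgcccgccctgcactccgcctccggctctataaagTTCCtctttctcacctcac
Spib: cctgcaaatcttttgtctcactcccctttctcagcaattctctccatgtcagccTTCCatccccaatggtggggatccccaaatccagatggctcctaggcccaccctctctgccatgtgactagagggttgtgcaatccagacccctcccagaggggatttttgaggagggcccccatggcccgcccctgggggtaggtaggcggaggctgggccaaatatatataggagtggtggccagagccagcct
Irf2: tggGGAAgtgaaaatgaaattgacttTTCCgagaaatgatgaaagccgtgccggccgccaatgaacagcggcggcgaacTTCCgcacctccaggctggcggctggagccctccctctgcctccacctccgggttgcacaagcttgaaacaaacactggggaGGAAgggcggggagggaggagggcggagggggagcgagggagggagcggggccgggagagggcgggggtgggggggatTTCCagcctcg
The table held windows for 6 of the 7 members, all but Spi1. The core GGAA occurred 2 times in the Irf4 window, 1 time each in Spib and Irf8, 5 times in Irf2, 4 times in Irf3 and 2 times in Irf5, and 93.4% of the 32851 windows of the table held it. The core GGGAA, which Ikaros can bind and which contains GGAA, was found 0 times in Irf4, Irf8 and Spib, 1 time in Irf2, and 2 times each in Irf3 and Irf5, against 56.2% of all windows with at least 1. An Ets-IRF composite, spelled as GGAA, 2 bases of any kind and GAAA on either strand, was held by 2.30% of all windows and by Irf2 alone among the members. It began at position -247 relative to the start of Irf2, in the run that opens the printed window, and overlapped a tandem of 2 GAAA cores with 2 bases between them, an arrangement present in 2.98% of all windows. These matches are letters in a short window and were not tested as binding sites.

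The lines were checked by Ikzf1, the gene of Ikaros, which lay between 13.95 and 14.85 in the 18 control libraries and between 19.63 and 20.93 in the 18 Ikaros libraries. All 10 pre-B cell markers were in the table. Their summed level, the log2 of the summed linear values, was 19.3 to 19.7 in control and 19.0 to 19.8 in Ikaros libraries. Cd79a, the most abundant, weighs most in this sum (18.46 in Ikaros and 18.61 in control cells at 24 h). Single markers moved apart: at 24 h 6 were higher and 2 lower, where 31.0% and 31.9% of all genes were. They ran from 5.19 for Rag1 to -3.96 for Igll1 (limma adjusted p 2.52e-14 and 1.95e-15). None of the 6 T cell markers was in the table. Of 12 myeloid and dendritic cell markers 3 were in it (Lyz2, Itgam and Fcer1g), with a summed level of 7.32 to 9.0 in control and 8.76 to 10.5 in Ikaros libraries. At 24 h Itgam was higher and Lyz2 lower in Ikaros cells, by differences of 4.24 and -2.94 (limma adjusted p 1.39e-07 and 4.96e-05). Earlier, Lyz2 in Ikaros cells lay above control by 2.94 at 0 h and 2.66 at 2 h (limma adjusted p 0.000627 and 0.000986), and it was lower from 12 h on. Fcer1g was higher by 2.62 at 2 h (limma adjusted p 1.89e-05) and was called at no other time. Itgam was called higher from 6 h on. Of the defining myeloid genes Csf1r, Mpo, Elane and Cebpa were not in the table. Of 4 plasma cell markers only Xbp1 was in the table, at 12.5 to 12.9 in control and 12.9 to 14.5 in Ikaros libraries. The part of these differences in the results for Spi1, Spib and Irf4, which myeloid, dendritic or plasma cells also use, was not tested. In bulk samples fewer cells with a messenger and less messenger per cell cannot be told apart.

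Against control, 1 of the 7 members was called at 0 h, 4 were at 2 h, 5 were at 6 h, 6 were at both 12 and 18 h, and 5 were at 24 h (limma, Benjamini-Hochberg adjusted p under 0.05 over all genes). The share of all 12762 genes called was 8.33% before induction and, in the order of the 5 later times, 19.1%, 37.3%, 45.8%, 58.2% and 62.9%. With so many genes moving, the sizes and the order in time say more of these genes than their number. At 2 h 1 member was higher and 3 were lower, where 9.18% of all genes were higher and 9.88% lower. At 24 h 4 were higher and 1 was lower, where 31.0% and 31.9% of all genes were. Irf2 and Irf5 were the members called lower at 2 h and higher at 24 h.

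**Figure D1:**
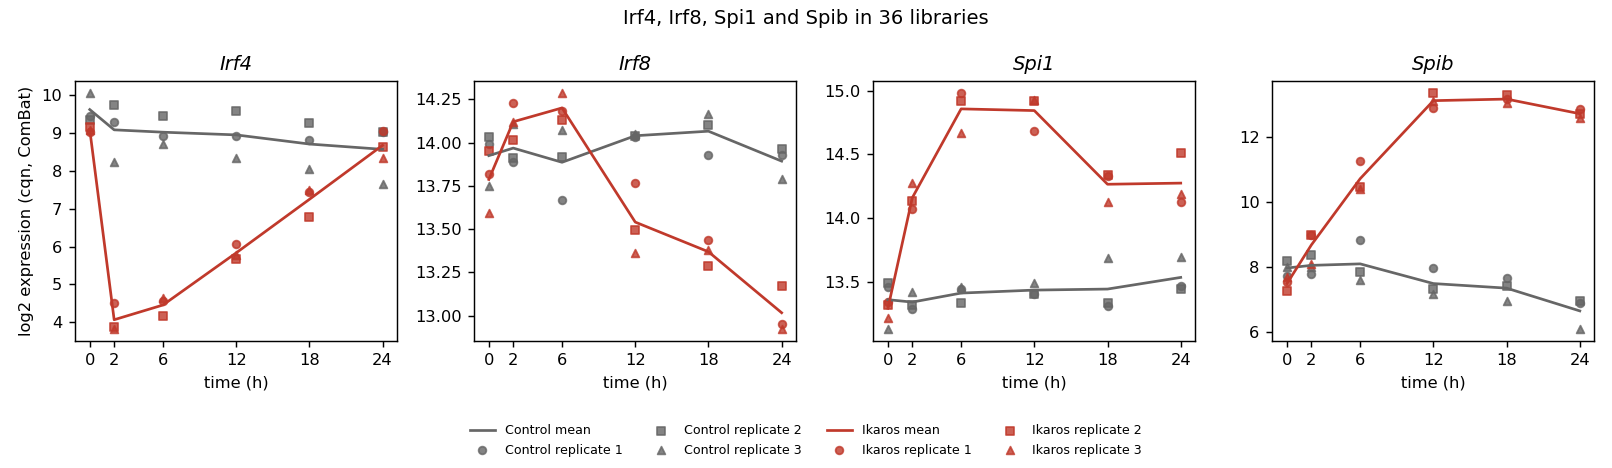
Log2 expression of Irf4, Irf8, Spi1 and Spib (vertical axes, one scale per gene) against time in hours, in control cells (grey) and Ikaros cells (red). Points are single libraries with one symbol for each replicate number and lines join the means of 3 libraries. Irf4 falls to a mean of 4.07 at 2 h and is back at 8.67 at 24 h, while Spib goes from 7.48 to 12.70.

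Irf4, on GRCm38 chromosome 13 from 30749226 to 30766976 (forward strand, protein coding), encodes a factor that also drives plasma cell formation later in B cell life. Its level in control cells at 2 h was 9.28, 9.74 and 8.23 in the 3 replicates. In Ikaros cells at 2 h it was 4.51, 3.87 and 3.83. All Ikaros libraries thus lay far below all control libraries. The difference was -5.02 (SE 0.38, limma adjusted p 2.93e-10), between -5.88 and -4.40 in the 3 culture batches. A mean as low as that of Ikaros cells at 2 h was rare: 0.353% of genes had a lower mean there, against 21.8% in Ikaros cells at 0 h. Without read counts the error of counting at such a low level cannot be given.

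The fall of Irf4 took place between 0 and 2 h. At 0 h the Ikaros libraries stood at 9.04, 9.15 and 9.08 and the control libraries at 9.46, 9.34 and 10.06. The ranges did not overlap at 0 h, but the difference of -0.53 did not pass the test (SE 0.38, limma adjusted p 0.515). Within Ikaros cells the step from 0 to 2 h was -5.02 (SE 0.38, limma adjusted p 4.69e-10).

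The return was slow. Ikaros cells held Irf4 at 4.56, 4.18 and 4.63 at 6 h. The values were 6.06, 5.67 and 5.77 at 12 h and 7.45, 6.79 and 7.50 at 18 h. At 24 h they were 9.06, 8.64 and 8.33. From 12 h on, each of these groups of 3 lay above all libraries of the time before it. The steps were 1.38 from 6 to 12 h, 1.41 from 12 to 18 h and 1.43 from 18 to 24 h (SE 0.38 each, limma adjusted p 0.0121, 0.00796 and 0.0241). The step from 2 to 6 h, 0.39, did not pass (95% interval -0.40 to 1.18). The calls of these late steps were not firm: the steps to 12 and to 24 h lost theirs without replicate 1 (1.32 and 1.34) and without replicate 2 (1.32 and 1.22), and the step to 18 h without replicate 1 (1.43).

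The gap to control closed in the same order. It was -4.56 at 6 h, had shrunk to -3.12 by 12 h and to -1.46 by 18 h (SE 0.38 each, limma adjusted p 6.99e-10, 2.07e-07 and 0.00196). At 18 h the call was lost without replicate 2, where the difference was -0.96. At 24 h the control libraries, at 9.04, 9.03 and 7.64, overlapped the Ikaros libraries. The difference at 24 h was 0.11 (limma adjusted p 0.824), and its 95% interval of -0.68 to 0.90 leaves room for a difference of either sign. Without replicate 3, the low control library, it was -0.19. Between 2 and 24 h the difference moved up by 5.12 (SE 0.54, limma adjusted p 1.78e-08), whereas the change from 0 to 24 h was 0.63 (95% interval -0.48 to 1.75, adjusted p 0.352).

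Irf8 is the close relative of Irf4 and lies on chromosome 8 from 120736358 to 120756694 (forward strand, protein coding). A second protein-coding model of the annotation, Gm20388, which is not in the table, covers 20337 bases of the same strand. Whole gene spans were compared here, and not exons. Reads of the pair may be mixed, which was not tested. In control cells Irf8 stayed between 13.67 and 14.16 over all 18 libraries. Ikaros cells at 6 h held 14.18, 14.13 and 14.29, all above the control libraries of that time at 13.67, 13.92 and 14.07. This difference of 0.31 passed (SE 0.12, limma adjusted p 0.0340), and lost its call without replicate 1 (0.21) or replicate 2 (0.36).

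From 12 h on, Irf8 was lower in Ikaros cells. At 24 h the Ikaros libraries stood at 12.95, 13.17 and 12.92 and the control libraries at 13.93, 13.96 and 13.79. The groups were well apart, and the same held in each of the 3 batches. The difference of -0.50 at 12 h grew to -0.70 by 18 h and to -0.88 by 24 h (SE 0.12 each, limma adjusted p 0.000847, 1.02e-05 and 2.41e-07). In time, most of the fall came from 6 to 12 h, by -0.66 within Ikaros cells (SE 0.12, limma adjusted p 0.000253), when Irf4 was already rising. In each Ikaros library Irf8 was nevertheless the more abundant of the pair on this length-corrected scale. The level of Irf8 minus that of Irf4 in Ikaros cells was 4.70 at 0 h and 10.05 at 2 h, and then shrank to 9.74, 7.71, 6.12 and 4.34 over the later times. In control cells the same distance stayed between 4.30 and 5.36 in the group means.

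Spi1 encodes PU.1 and lies on chromosome 2 from 91082390 to 91115756 (forward strand, protein coding). At 0 h the lines overlapped, with control at 13.46, 13.49 and 13.13 and Ikaros at 13.34, 13.32 and 13.21. At 6 h control cells held 13.44, 13.33 and 13.46, and Ikaros cells 14.98, 14.92 and 14.67. The groups were separate from 2 h on. The difference from control was 0.82, 1.45, 1.41, 0.82 and 0.74 in the order of the 5 times from 2 to 24 h (SE 0.12 each, limma adjusted p 1.12e-05, 4.18e-10, 2.50e-10, 1.29e-06 and 5.00e-06). The rise came in the steps to 2 h (0.87) and to 6 h (0.70), and the step from 12 to 18 h was -0.58 (SE 0.12 each, limma adjusted p 7.40e-06, 0.000311 and 0.000737). The step to 6 h lost its call without replicate 1 (0.59) or replicate 2 (0.65). At 24 h the messenger stood at 14.12, 14.51 and 14.19, still above the highest control library of that time at 13.70.

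Spib, on chromosome 7 from 44525993 to 44532071 (reverse strand, protein coding), started low. At 0 h it stood at 7.70, 8.19 and 7.99 in control and at 7.53, 7.24 and 7.68 in Ikaros cells. At 2 h the Ikaros libraries were at 8.98, 8.96 and 8.08 and overlapped control at 7.78, 8.35 and 8.00. The difference of 0.63 at 2 h did not pass (SE 0.30, limma adjusted p 0.157). At 6 h Ikaros cells held 11.26, 10.46 and 10.40 against 8.82, 7.83 and 7.61 in control, a clear separation. At 12 h they held 12.87, 13.34 and 13.10 against 7.97, 7.30 and 7.18.

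The rise of Spib had 3 steps and a plateau. Within Ikaros cells it gained 1.19 from 0 to 2 h, 2.03 from 2 to 6 h and 2.40 from 6 to 12 h (SE 0.30 each, limma adjusted p 0.00703, 6.15e-05 and 4.12e-06). The step to 2 h lost its call without replicate 2 (0.92). Later steps did not pass, with 0.05 from 12 to 18 h (95% interval -0.57 to 0.67) and -0.45 from 18 to 24 h (-1.07 to 0.17). Against control the difference was 2.62, 5.62, 5.81 and 6.06 in the order of the 4 times from 6 to 24 h (SE 0.30 each, limma adjusted p 1.46e-07, 4.70e-14, 1.02e-14 and 2.13e-15). It lay between 5.74 and 6.47 in the 3 batches at 24 h. Part of the gap at 24 h came from the control side, where Spib stood at 6.90, 6.94 and 6.09, lower than in all control libraries of 0 h. With the low level of Spib in control cells its fold is less precise than that of the abundant members.

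The Ets pair thus came closer together. The level of Spi1 exceeded that of Spib in Ikaros cells by 5.81, 5.49, 4.15, 1.74, 1.11 and 1.57 in the order of the 6 times. In control cells it exceeded Spib by 5.40 at 0 h and 6.89 at 24 h. The messenger of PU.1 was the more abundant of the pair in the mean of each group.

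**Figure D2:**
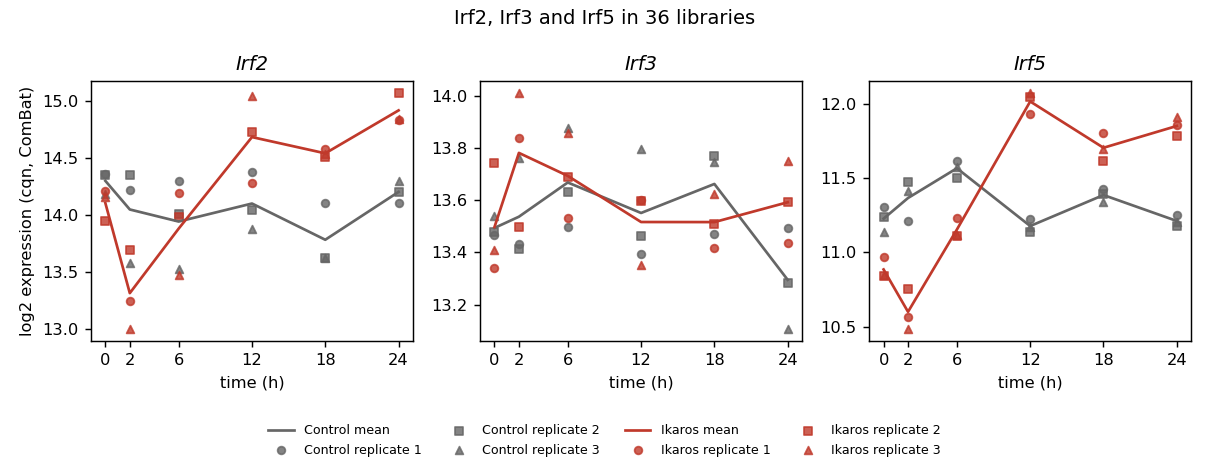
Log2 expression of Irf2, Irf3 and Irf5 (vertical axes, one scale per gene) against time in hours in control (grey) and Ikaros cells (red), with one symbol per replicate number and lines through the means of 3 libraries. Irf5 crosses control between 6 and 12 h and the 2 lines stay mixed for Irf3.

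Irf5, on chromosome 6 from 29526625 to 29541871 (forward strand, protein coding), acts downstream of Toll-like receptors in B cells and myeloid cells. It overlaps Tnpo3 on the other strand by 1045 bases, and the strand setting of the counting was not given in the sources used here. It was the only member called at 0 h, at 10.97, 10.84 and 10.85 in Ikaros and 11.31, 11.24 and 11.14 in control cells. This difference of -0.34 (SE 0.08, limma adjusted p 0.00497) lost its call without replicate 1 (-0.34) or replicate 2 (-0.32). At 2 h the Ikaros libraries were at 10.56, 10.75 and 10.48 and the control libraries at 11.21, 11.48 and 11.42. At 12 h they were at 11.93, 12.05 and 12.08 against 11.22, 11.14 and 11.17.

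The lines were thus apart at both times, in opposite directions. The differences over the 5 times from 2 to 24 h were -0.77, -0.41, 0.84, 0.32 and 0.64 (SE 0.08 each, limma adjusted p 5.21e-08, 0.000177, 2.01e-09, 0.00114 and 7.99e-08). Within each of the 3 batches the sign was the same as in the means at all times. From 2 to 24 h the difference moved by 1.41 (SE 0.11, limma adjusted p 1.18e-10).

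Irf2, on chromosome 8 from 46739732 to 46847458 (forward strand, protein coding), shares its binding sites with the activator IRF1. It overlaps 3 annotated genes of the other strand that are not in the table. At 2 h it stood at 13.25, 13.69 and 13.00 in Ikaros and at 14.22, 14.35 and 13.57 in control cells, and these ranges overlapped. At 24 h it stood at 14.84, 15.07 and 14.84 in Ikaros and at 14.10, 14.20 and 14.30 in control cells, with no overlap. The difference was -0.73 at 2 h, and 0.58, 0.76 and 0.71 over the 3 times from 12 h on (SE 0.22 each, limma adjusted p 0.0206, 0.0339, 0.00489 and 0.00691). Its calls rested on few libraries. The call at 2 h was lost without replicate 1 (-0.61) or replicate 2 (-0.77), that at 12 h without replicate 2 (0.53) or replicate 3 (0.29), and those at 18 and 24 h without replicate 2 (0.70 and 0.64). The direction was kept in all of these, and at 24 h Irf2 was higher in Ikaros cells in 3 of 3 batches, by 0.54 to 0.87. At 12 h the ranges of the lines overlapped. Irf2 was then higher in 2 of 3 batches, with a difference of -0.09 in batch 1.

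Irf3, on chromosome 7 from 44997648 to 45002848 (forward strand, protein coding), mediates the interferon response to nucleic acids and is regulated mainly at the protein level. It overlaps Bcl2l12 on the other strand by 1065 bases. Over all 36 libraries it stayed between 13.11 and 14.01. At 24 h it stood at 13.43, 13.59 and 13.75 in Ikaros and at 13.50, 13.28 and 13.11 in control cells, which overlapped. The difference at 24 h was 0.30, with a 95% interval of -0.0061 to 0.60 (limma adjusted p 0.0819), and it was called without replicate 1 (0.48). At the other times the difference lay between -0.15 at 18 h and 0.24 at 2 h. The moderated F test over the Ikaros time course did not pass for Irf3 (limma adjusted p 0.354). At 12 h the Irf5 difference of 0.84 lay outside the Irf3 interval, which ran from -0.34 to 0.27. The Irf3 intervals at 2 and 24 h reached up to 0.55 and 0.60, which leaves room for changes of that size.

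**Figure D3:**
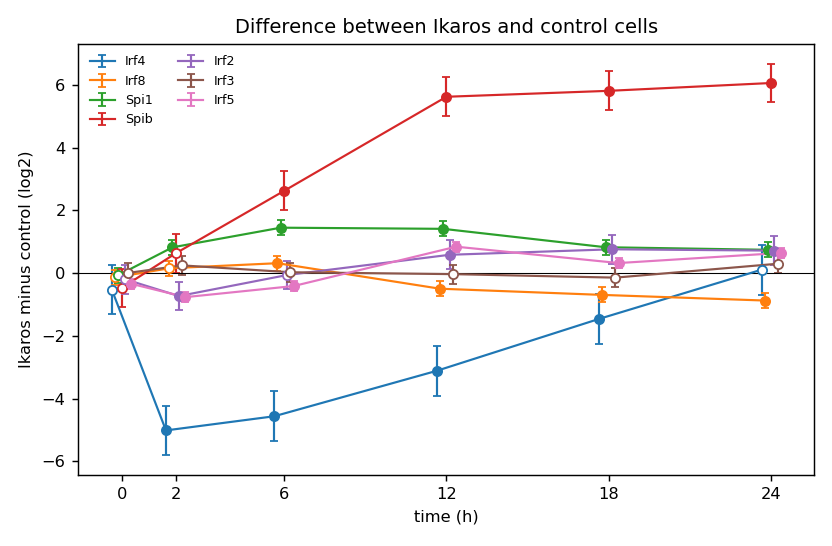
Log2 expression in Ikaros cells minus that in control cells (vertical axis) against time in hours for the 7 members, with 95% intervals from the limma fit on 3 libraries per group. Filled points passed an adjusted p of 0.05 and open points did not, and points are shifted sideways a little so that the bars can be seen. Irf4 is at -5.02 at 2 h and 0.11 at 24 h, and Spib reaches 6.06 at 24 h.

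Over the whole time course 6 of the 7 members changed in Ikaros cells, all but Irf3, where 76.4% of all genes did (moderated F test in limma). In control cells 2 members changed with time, Spib and Irf5 (limma adjusted p 0.0325 and 0.0319), where 1.69% of all genes did. Both control calls were lost whichever of the 3 replicates was left out. The difference between the lines changed with time for 6 members, again all but Irf3, and for 59.8% of all genes. Between 0 and 24 h it changed for 5 members (48.4% of all genes): it rose for Spi1, Spib, Irf2 and Irf5 and fell for Irf8. Without replicate 2 only 3 of these calls remained, with those of Spi1 (0.59) and Irf2 (0.72) lost, and that of Irf2 was also lost without replicate 1 (0.92). Between 2 and 24 h it changed for 5 members (47.3% of all genes), with Irf4 in the place of Spi1.

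By interval within Ikaros cells, 6 members were called from 0 to 2 h, where 19.2% of all genes were. Irf8, Spi1 and Spib went up and Irf4, Irf2 and Irf5 went down. The calls of Irf8, Irf2 and Irf5 in this interval were lost when any replicate was left out, with 2 or 3 members called. From 2 to 6 h Spi1, Spib and Irf5 rose, 3 members where 11.2% of all genes were called. From 6 to 12 h Irf4, Spib, Irf2 and Irf5 rose and Irf8 fell, 5 members where 20.8% of all genes were called. Without replicate 2 the calls of Irf4 and Irf2 in that interval were lost and 3 remained, and that of Irf2 was also lost without replicate 3 (0.42). From 12 to 18 h Irf4 rose and Spi1 and Irf5 fell, 3 members where 25.5% of all genes were called, and the call of Irf5 (-0.31) was lost without replicate 2 (-0.25) or replicate 3 (-0.28). From 18 to 24 h only Irf4 rose, where 5.77% of all genes were called, and without replicate 1 or replicate 2 no member did.

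The 12 group means were put in order, and neighbours were compared by whether the ranges of their libraries overlapped, which is not a test. For Irf4 the highest mean was that of control cells at 0 h (9.62 ± 0.39, SD, n = 3), and the 8 highest groups were the 6 control groups with Ikaros cells at 0 and 24 h. Below them Ikaros cells at 18 h (7.25 ± 0.39), 12 h (5.83 ± 0.20) and then 6 and 2 h (4.46 ± 0.24 and 4.07 ± 0.38) followed, and only the last pair overlapped. For Spib, Ikaros cells at 18 and 12 h (13.15 ± 0.12 and 13.10 ± 0.24) overlapped at the top. Ikaros cells at 24 h (12.70 ± 0.15) and 6 h (10.71 ± 0.48) followed without overlap. The step from 18 to 24 h nevertheless did not pass the test (limma adjusted p 0.504). For Spi1, Ikaros cells at 6 and 12 h (14.86 ± 0.17 and 14.84 ± 0.14) overlapped at the top, then came those at 24, 18 and 2 h, and last the 6 control groups and Ikaros cells at 0 h together. For Irf3 each neighbour in the order overlapped the next.

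Some members tracked each other over the 12 group means, which share libraries, lines and time and carry no test. Pearson's r was 0.83 for Spi1 and Spib, 0.80 for Irf2 and Irf5, -0.81 for Irf4 and Spi1, and -0.86 for Irf8 and Irf2. Among the genes at or above the median mean, the patterns closest to Irf4 were those of Slco4a1 (r 0.97), Ankrd28 (0.96) and Patz1 (0.96), which were lower than control at 2 h by a difference of -2.90, -1.09 and -0.72. Closest to Spib were Mtmr3 (0.99) and Clasrp (0.98), and closest to Spi1 were Arpc1b (0.98), Ptk2b (0.98) and Tsc22d4 (0.98). Closest to Irf8 were Slmo2 (0.98), Mrpl18 (0.98) and Alyref (0.97), and to Irf2 Mnt (0.95), Lnx2 (0.94) and Zfp282 (0.93). Closest to Irf5 were Anxa7 (0.93), Ostf1 (0.92) and Dapp1 (0.92), and to Irf3 Zfp426 (0.91), Fam50a (0.90) and Sltm (0.90).

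The genes around these factors were read from lists, described by counts beside all genes, of which 31.0% were higher and 31.9% lower at 24 h with a median difference of -0.0055. Of 12 known PU.1 and Spi-B targets in B cells 11 were in the table, and 8 were higher, 0 lower and 3 not called at 24 h, with a median difference of 2.29. Fcgr2b, the inhibitory Fc receptor, stood at 14.30 ± 0.37 (SD, n = 3) in Ikaros and 7.22 ± 0.55 in control cells, a difference of 7.08 (limma adjusted p 3.30e-16), and was already higher by 2.08 at 0 h (limma adjusted p 4.55e-05). Blnk, the adaptor of pre-B receptor signalling, differed by 4.14 and the purinergic receptor gene P2ry10 by 3.54 (limma adjusted p 4.19e-16 and 8.59e-16). The list was mixed early, with 2 higher and 4 lower at 2 h, and 7 higher and 1 lower at 12 h. Of all genes 9.18% were higher and 9.88% lower at 2 h, and 23.0% were higher and 22.8% lower at 12 h. These lists were drawn up from textbook knowledge, but with earlier results of these data known, so their counts are not independent support. They hold genes that many other factors control.

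Of 12 IRF4 and IRF8 targets 8 were in the table, and at 24 h 5 were higher and 3 lower, with a median of 1.55. Those that were higher were led by Rag1, the recombinase (15.22 ± 0.54 against 10.03 ± 0.02, a difference of 5.19, limma adjusted p 2.52e-14), Bcl6 (4.36) and the chemokine receptor gene Cxcr4 (2.42). The surrogate light chain genes Igll1 and Vpreb1 were lower by a difference of -3.96 and -3.42 (limma adjusted p 1.95e-15 and 4.80e-12; Vpreb1 has the near-identical copy Vpreb2 and is uncertain), and Ikzf3, which encodes Aiolos, by -1.59 at a low level (limma adjusted p 0.0107). At 0 h the Ikaros line was already higher in Bcl6 by 2.00 and in Ikzf3 by 2.22, the latter opposite to its sign at 24 h (limma adjusted p 0.000582 and 0.00633). At 2 h, when Irf4 was lowest, 2 genes of the list passed the test upwards and 2 downwards. Bcl6 was above control by 2.06 and Ebf1, a B lineage factor, by 0.51 (limma adjusted p 0.000236 and 0.0434), whereas Igll1 was below control by -1.38 and Vpreb1 by -0.82 (limma adjusted p 8.15e-06 and 0.0222). Rag1 differed at that time by -0.16, which did not pass (limma adjusted p 0.775).

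Of 7 other IRF and IRF2-binding genes 6 were in the table, and 4 were higher and 0 lower at 24 h, with a median of 0.66. Irf7, the amplifier of the interferon response, stood higher from a low level (9.72 ± 0.18 against 6.88 ± 0.47, a difference of 2.84, limma adjusted p 3.15e-06). Irf1, the activator that competes with IRF2, differed by 2.07 and Irf2bpl by 0.73 (limma adjusted p 1.81e-14 and 0.0205). Before induction Irf2bpl was already higher in the Ikaros line by 0.98, more than at 24 h, and Irf1 was lower by -0.59 (limma adjusted p 0.0206 and 0.000921). Of 9 partner genes 8 were in the table, and 4 were higher and 1 lower, with a median of 0.67. Ets1, another Ets factor, differed by 7.84 at 24 h but also by 4.93 at 0 h (limma adjusted p 3.30e-16 and 1.71e-10). Stat2, which acts in complexes on interferon elements, differed by 1.98 (0.53 at 0 h, limma adjusted p 0.0222), and Def6, an IRF4-binding protein, by -0.68 (limma adjusted p 7.54e-12 and 0.000238).

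All 11 genes that activate IRF3, IRF5 and IRF7 were in the table, and 6 were higher and 1 lower at 24 h, with a median of 0.33. The ubiquitin ligase gene Traf6 (1.86), Tmem173, which encodes STING (1.52), and the Toll-like receptor adaptor gene Ticam1 (1.33) were the highest, and Traf3 was lower by -1.90 (limma adjusted p 8.01e-09, 5.99e-10, 2.45e-07 and 7.48e-13). Of these 4 genes, Tmem173 passed the test at 0 h as well, at 0.68 (limma adjusted p 0.00211). Of 12 interferon-stimulated genes 5 were in the table, and 3 were higher and 2 lower, with a median of 0.81. Isg15, a ubiquitin-like modifier, differed by 2.69, the RIG-I gene Ddx58 by 2.57 and Ifit2 by 0.81, whereas Bst2 differed by -1.98 and Ifih1, the MDA5 gene, by -0.91 (limma adjusted p 9.85e-06, 2.18e-11, 0.000702, 3.60e-12 and 0.0126). This list was split in direction and Ifnb1 itself was not in the table.

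**Figure D4:**
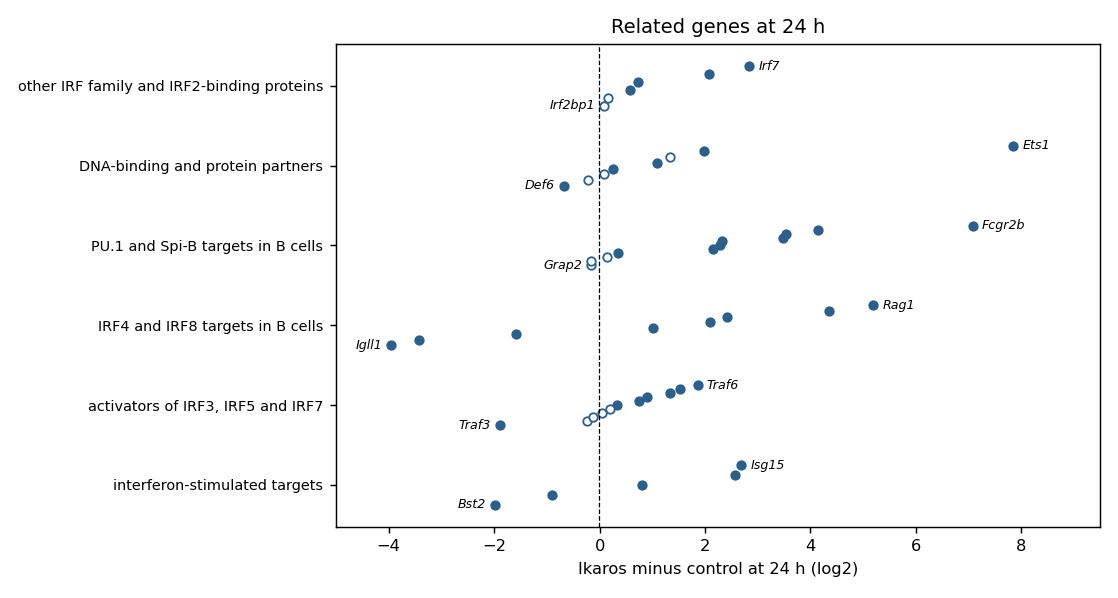
Log2 expression in Ikaros cells minus that in control cells at 24 h (horizontal axis) for each listed gene in the table, in one row per list (vertical axis). Filled points passed an adjusted p of 0.05, open points did not, and the broken line is the median of all genes. The outermost genes of each row are named, and Ets1 (7.84) and Fcgr2b (7.08) lie farthest to the right.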

How the data were processed

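Strand-specific mRNA-seq libraries (36) were grouped by the cell line and time in the labels, with 3 biological replicates per group. The authors trimmed the reads, aligned them with TopHat2 to mm10 keeping unique best hits and counted genes with HTSeq (versions not given in the sources used here). The deposited values are log2 expression, normalized with cqn (GC content, gene length) and adjusted with non-parametric ComBat for library preparation, then shifted so that the lowest is 1. The base of the logarithm was taken from cqn. ComBat before deposition may make the errors given here too small. Library medians lay between 11.70 and 11.73.

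limma 3.58.1 (R 4.3.3) was run on all 12762 genes with one mean per group over 36 libraries, with two-sided p-values adjusted by Benjamini-Hochberg and a call at an adjusted p under 0.05. Intervals are at 95% and are not adjusted. The study states no test for these data. The fit was tested on simulated data with independent errors, which cannot show the effect of ComBat or of the pairing by batch. The members and the lists were chosen with earlier results of these data known. Per list, up to 3 called genes with the largest rise and fall at 24 h were named, and per member the 3 genes with the closest group means among genes whose mean reached the median of gene means (11.72). Of the genes this rule takes, 2 are not reported here. Named outside this rule were overlapping or copied genes, markers, Ifnb1 and Ebf1, and list genes at 0 and 2 h. Gene positions are from GENCODE M21 on GRCm38, the build of mm10.

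The batch number pairs control and Ikaros cultures in the labels. Batches were 1, 2 and 4 at 0 h and 1, 3 and 4 at later times. Replicate 2 was therefore batch 2 at 0 h and batch 3 afterwards. For steps and changes in time, the replicate block treated 0 h and later cultures with the same batch number as the same batch. The methods describe the 0 h cultures as obtained separately. Deviations of paired libraries correlated between -0.06 and 0.51 over 18 pairs (median 0.13, 12 above 0.1), and no pair of libraries shared more than 0.384% of values. The alternatives were leaving out each replicate, the batch as replicate block, only the groups compared, quantile normalization, a trended and robust eBayes, and a low-expression filter (9571 genes kept, percentile 25 of the mean).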

Additional observations from a re-analysis of the deposited data

Results flagged for a closer look

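These results stood out because the difference between the lines was not the same at 2 times, by a test of the change itself (limma, Benjamini-Hochberg adjusted over all genes). From 0 to 24 h the Ikaros minus control difference changed by 0.81 for Spi1, 6.53 for Spib, 0.98 for Irf5, 0.91 for Irf2 and -0.74 for Irf8 (adjusted p 0.000246, 2.22e-12, 4.75e-08, 0.0185 and 0.000498). From 2 to 24 h, all under drug and without the separately collected 0 h cultures, it changed by 5.43 for Spib, 5.12 for Irf4, 1.41 for Irf5, 1.45 for Irf2 and -1.03 for Irf8 (adjusted p 9.58e-11, 1.78e-08, 1.18e-10, 0.000440 and 9.63e-06). Both tests use the libraries of 24 h. The groups of 3 libraries are too small for a rule on single outlying libraries.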

How the results depend on the processing

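Of 91 single values per setting, all 91 kept direction and call under quantile normalization, eBayes with trend and robust settings and the replicate block. The F tests are not among these values. The count from the replicate block was the same in all comparisons. Irf4 and Spib fall below the 25th percentile filter, so only 65 values remained, all 65 with their call. By loss of these genes the counts fell to 3 at both 2 and 6 h and to 4 at 12, 18 and 24 h. For the change from 2 to 24 h and from 6 to 12 h 3 remained. From 18 to 24 h 0 remained, and for control cells with time 1. By the F test with eBayes trend and robust settings 1 member changed in control cells, against 2 in the main fit. Fits of only the groups compared, with few residual degrees of freedom, lost 17 calls and left 0 members at 0 h, 3 at 6 h, 2 from 0 to 2 h, 0 from 2 to 6 h, 1 from 6 to 12 h and 0 in control cells. Leaving out replicates 1, 2 and 3 in turn lost 11, 18 and 6 calls and gained 1. The counts then ran from 0 to 1 at 0 h, 3 to 4 at 2 h and 4 to 5 at 6 h. At 12 h they ran from 5 to 6, and at both 18 and 24 h from 4 to 6. For the change from 0 to 24 h they ran from 3 to 5. By interval they ran from 2 to 3 from 0 to 2 h, 3 to 4 from 6 to 12 h and 0 to 1 from 18 to 24 h. In control cells they were 0. Smaller changes of other counts are not listed here. The sign turned only in values with no call, which ranged as follows over the replicates left out. Irf4 at 24 h ran from -0.19 to 0.35. Irf3 ran from -0.13 to 0.070 at 0 h, -0.16 to 0.17 at 12 h, -0.12 to 0.31 in the change from 2 to 24 h, -0.23 to 0.020 from 2 to 6 h and -0.14 to 0.092 from 12 to 18 h. Spi1 ran from -0.25 to 0.063 in the change from 2 to 24 h, -0.15 to 0.13 from 6 to 12 h and -0.072 to 0.12 from 18 to 24 h. From 12 to 18 h Spib ran from -0.069 to 0.11 and Irf2 from -0.36 to 0.039. The cause was not tested. Depth cannot be read from the deposited values, so the precision of the low levels of Irf4 and Spib cannot be given.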
